A study of Mus musculus with 6 samples.

Results

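The ETS transcription factors are followed here across Ba/F3 cells with and without an inducible ETV6::FRK fusion. The members are Etv6, Elf1, Elf2, Elf4, Ets1, Ets2, Fli1, Gabpa, Elk3 and Elk4, taken by gene symbol. No threshold on measured values entered the rule, though earlier results of these data were known when the genes were listed. Of these 10 genes, 9 were among the 14238 genes of the deposited table, all 9 passed the low-count filter, and Ets1 was not analysed here. Ba/F3 is an established mouse cell line that depends on interleukin-3, labelled as pro-B. All 6 cultures carried ETV6::FRK in a doxycycline-dependent retroviral Tet-On system. The control group (3 libraries) received no doxycycline and is labelled as not expressing the fusion. The induced group (3 libraries) received 500 ng/ml doxycycline. RNA was taken from both groups after 48 h. The titles pair the libraries by the prefixes EF1, EF2 and EFPC (replicates 1, 2 and 3). The titles also mark every induced library IL3n and every control library IL3p, without a stated meaning, so doxycycline, the fusion and that mark cannot be told apart.

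ETS factors share a winged helix-turn-helix domain that contacts a GGAA core in DNA, and family members with similar domains can compete for the same sites. ETV6 is mostly a repressor. It forms polymers through its pointed domain and recruits corepressors, and in leukaemia that pointed domain is often fused to a kinase and brings the kinase molecules together. FLI1, ELF1, ELF4, ETS2 and GABPA mainly activate transcription. ELK3 and ELK4 are ternary complex factors, which sit beside serum response factor (SRF) on immediate early genes and respond to ERK signalling.

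Library totals ran from 30970019 to 43177842 counts, and the fewest reads behind any value of the 9 genes was 237. Whether the triplicate cultures were grown in separate experiments is not stated, and the p-values reflect variation among these 6 cultures alone. Levels are CPM, counts scaled to library depth with TMM factors. In bulk RNA, fewer cells of a type and less RNA per cell cannot be told apart. Fold changes are log2 values from DESeq2 with their standard errors (SE), and a gene counts as called at a Benjamini-Hochberg adjusted p under 0.05 over all genes. EdgeR's quasi-likelihood test, the main test, called 0 of 13260 genes, with 1238 higher and 1091 lower at an unadjusted p under 0.05. DESeq2 called 558 higher and 348 lower. A list of 10 interferon-response genes, of which 8 were tested, had all 8 called higher by DESeq2 (4.25% of all genes). With the pairing as a block DESeq2 called 6 of the 8 higher (6.4% of all genes). Induced and control libraries did not overlap in CPM, upward, for 6 of the 8 (11.2% of all genes). The median difference of the list within the pairs was 6.79 for EF1, 5.25 for EF2 and 1.49 for EFPC on the log2 scale. The EFPC pair thus stood apart from the others. Of 10 B lineage markers only Cd79a and Cd79b, signal chains of the B cell receptor, were analysed, so the pro-B label was checked on these 2 alone, and their summed level was 12.3 to 16.9 CPM without doxycycline and 5.75 to 13.8 CPM with it. Of 6 T cell and 6 fibroblast markers 1 each was analysed, Lck at 2.09 to 5.03 CPM and Col1a1 at 0.125 to 0.714 CPM. Their part in the results below was not tested.

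Of the 9 ETS factors, DESeq2 called 3 higher (Etv6, Elk4 and Elf4) where it called 4.25% of all genes higher. It called 1 lower (Elk3) where it called 2.65% of all genes lower. EdgeR called 0 of the 9. At an unadjusted p under 0.05 it had the same 3 higher and 1 lower, against 9.34% and 8.23% of all genes. DESeq2 with the pairing as a block called the same 3 and 1 (6.4% and 4.73% of all genes). In all 3 pairs, 5 members were higher and 1 was lower, as were 21.2% and 25.8% of all genes. The 4 genes called by DESeq2 were also the members whose induced and control libraries did not overlap in CPM, which held for 11.2% of all genes upward and 13% downward. The median edgeR log2 fold change was 0.39 over the 9 factors and -0.01 over all 13260 tested genes.

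**Figure D1:**
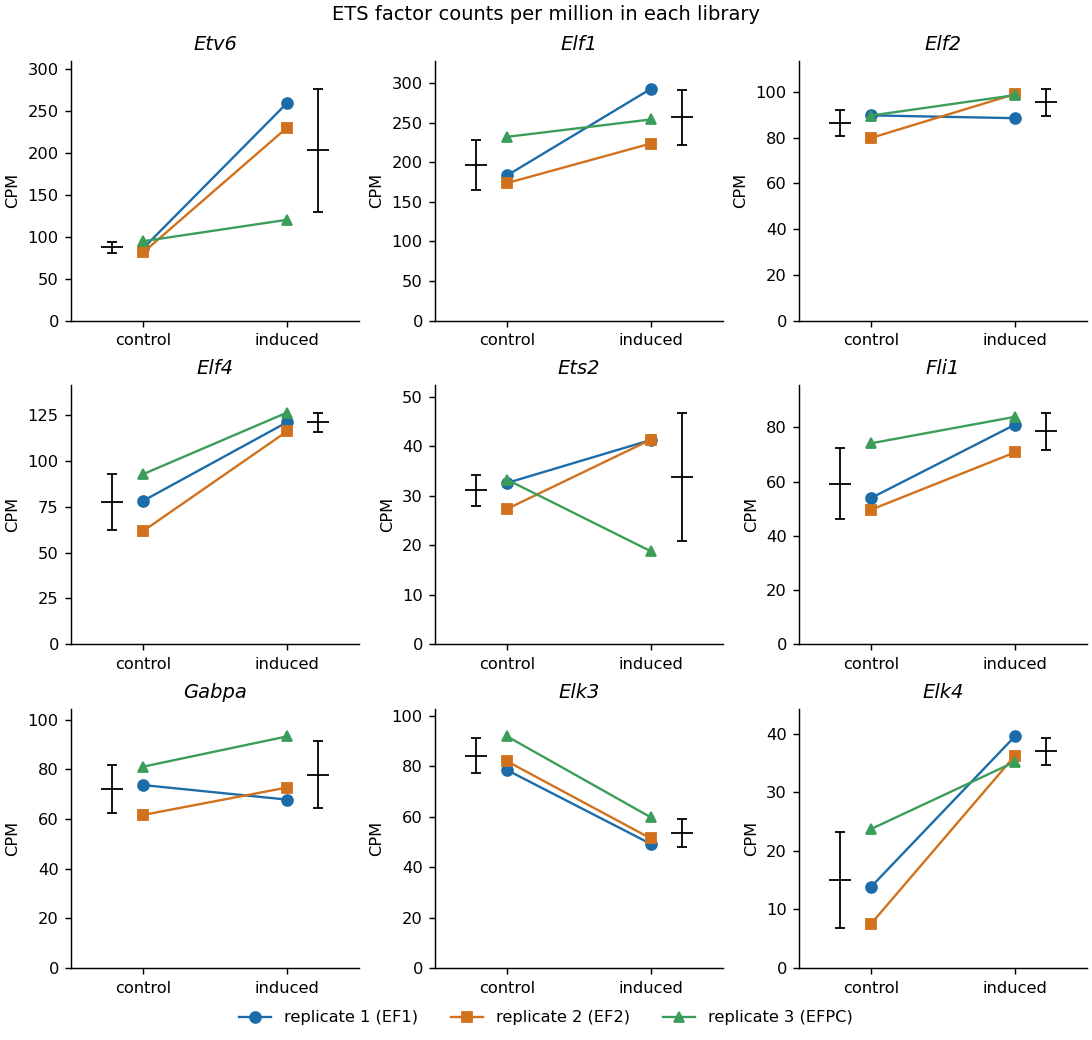
CPM of each of the 9 ETS factors (vertical axes start at 0) in control and induced libraries, with a line joining the libraries of each pair and black marks giving the mean and SD (n = 3). Etv6, Elf4 and Elk4 lay above all controls in every induced library, Elk3 lay below them, and the induced EFPC library held the lowest induced value of Etv6 (120 CPM) and of Ets2 (18.8 CPM).

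Etv6, the gene of the fusion's transcription factor partner (gene ID 14011, chromosome 6, 134035700 to 134270158, GRCm38), was higher in every induced library. In the EF1 pair it went from 86.2 to 259 CPM. In the EF2 pair the step was from 81.3 to 230 CPM, and in the EFPC pair from 94.6 to 120 CPM. The controls lay close together and the induced libraries did not, with SDs of 6.76 around a mean of 87.35 and of 73.3 around a mean of 203 CPM (n = 3 each). The log2 fold change was 1.23 (SE 0.307), with adjusted p values of 0.00302 (DESeq2) and 0.153 (edgeR's quasi-likelihood test). The DESeq2 call was lost without control replicate 1, induced replicate 1 or induced replicate 2 (adjusted p = 0.0673, 0.066 and 0.0604), and without the EF1 or the EF2 pair (0.547 and 0.261). Without the induced EFPC library, which held the lowest induced Etv6 value, the adjusted p was 1.63e-15 by DESeq2 and 0.00332 by edgeR. The log2 fold change by DESeq2 was then 1.499. Calls rose over all genes in these fits, to 1170 higher and 990 lower by DESeq2 and to 619 and 273 by edgeR. The DESeq2 fits that left out libraries were added after seeing the data.

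The deposited table counts reads per gene, so reads of the introduced fusion that match mouse Etv6 cannot be told apart from reads of the resident gene. Induced minus control, Etv6 differed by 173, 149 and 25.5 CPM in the EF1, EF2 and EFPC pairs. The share of the authors' TPM total that lies outside the table followed the same order. It was 0.584%, 0.356% and 0.112% in the induced libraries and 0.0567% to 0.106% in the controls. The table holds only genes with at least 1 count in every library, so this share can include any gene without a count in some library. Of the 10 listed interferon-response genes, 8 were in the table. Which genes make up the share was not tested. Frk was not analysed here. The interferon list had the same order over the pairs, and what part either has in the Etv6 values was not tested.

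A change in which transcripts of a gene are read can move its number of reads per TPM, which depends on transcript length. For Etv6, with 5 transcripts listed, that number was 99.6%, 100.04% and 99.6% of the control mean in the induced EF1, EF2 and EFPC libraries, against 99.9% to 100.2% in the controls. It thus moved by less than 1% while the count rose. Of genes with at least 200 reads in every library, 60.6% stayed within 1% in all induced libraries. Elk4 varied most among the 9 factors, from 95.5% to 107% in the controls and from 101% to 104% in the induced libraries. The measure sees transcripts of unlike length only, and exon counts were not used here.

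None of the 6 nearest tested genes around Etv6 was called by DESeq2 or by edgeR. By edgeR 0 were higher and 1 lower at an unadjusted p under 0.05, against 9.34% and 8.23% of all genes. The nearest tested protein-coding genes upstream were Smim10l1, Ybx3, a cold shock domain protein, and Magohb, an exon junction protein. Those downstream were Bcl2l14, a BCL2 relative, Lrp6, a WNT co-receptor, and Mansc1. Their starts lay at positions from -2751311 to 573507 bases relative to that of Etv6. Lrp6 was at 79.7, 71.2 and 94.1 CPM without doxycycline and 77.4, 101 and 96.3 CPM with it. Ybx3 was at 440, 376 and 409 CPM without doxycycline and 351, 353 and 286 CPM with it. The groups did not overlap for 2 of the 6, Ybx3 and Mansc1, both lower with doxycycline. The same held downward for 13% of all genes. The median edgeR log2 fold change of the 6 was -0.16, with a range from -1.23 (Mansc1, at most 1.21 CPM) to 0.17.

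Within the pairs, Etv6 stood above most of the other 8 factors. In the EF1 pair its log2 difference was 1.59 against a median of 0.46 over the others, and 0 of the 8 had a larger one. In the EF2 pair it was 1.4996 against 0.44, and 1 of the 8 was larger, Elk4 at 2.25. In the EFPC pair it was 0.34 against 0.16, and 2 of the 8 were larger, Elk4 at 0.57 and Elf4 at 0.44. Etv6 minus the median of the others was therefore 1.13, 1.06 and 0.19 on the log2 scale. From the edgeR fit of all libraries it was 0.95, and it lay between 0.76 and 1.11 under the alternatives tried. Among all tested genes, 3.03%, 3.53% and 19.4% had a larger difference than Etv6 in the EF1, EF2 and EFPC pairs. Etv6 thus lay over 1 log2 unit above the median of the others in the EF1 and EF2 pairs and 0.19 above it in the EFPC pair. The difference between pairs was not tested, since each holds 1 library per group.

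**Figure D2:**
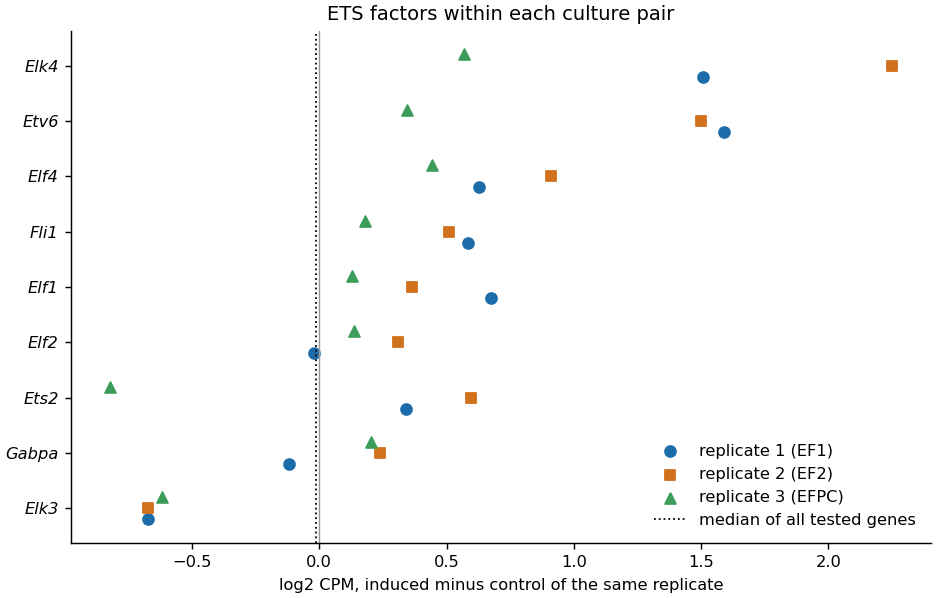
Difference in log2 CPM (with a prior count of 2), induced minus control of the same replicate, for each ETS factor in each pair (points), with a dotted line at the median edgeR log2 fold change of all tested genes (-0.01). Elk4, Etv6, Elf4, Fli1 and Elf1 lie to the right of 0 in all 3 pairs, Elk3 lies near -0.65 in all 3, and Ets2 crosses to -0.82 in the EFPC pair.

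The ternary complex factors Elk4 and Elk3 moved in opposite directions. Elk4 (chromosome 1, 132007577 to 132026448), the partner of SRF also called SAP-1, went from 13.9 to 39.5 CPM in the EF1 pair, from 7.58 to 36.2 CPM in the EF2 pair and from 23.7 to 35.2 CPM in the EFPC pair. The induced libraries lay close together (36.95 ± 2.26 CPM, SD, n = 3) and the controls were spread over a wide range (15.1 ± 8.14 CPM). Its log2 fold change was 1.31 (SE 0.388), with adjusted p values of 0.0181 (DESeq2) and 0.181 (edgeR). With the pairing as a block the DESeq2 adjusted p was 6.90e-04. Its fold change was above that of Etv6 in both tools with all libraries. It was below it without control replicate 2 (DESeq2, 0.99 against 1.18), without induced replicate 3 (1.34 against 1.499) and without the EF2 pair (1.01 against 1.09). Its DESeq2 call was lost without control replicate 1, induced replicate 1 or induced replicate 2 (adjusted p = 0.195, 0.13 and 0.11), and without the EF1 or the EF2 pair (0.739 and 0.188).

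Elk3 (chromosome 10, 93247415 to 93311159), also called NET, is a ternary complex factor that represses until ERK signalling phosphorylates it. Elk3 had 78.5, 82.0 and 91.9 CPM in control replicates 1 to 3. The induced values were 49.3, 51.4 and 59.8 CPM, all below the lowest control. The fall was of nearly 1 size in each pair, with log2 differences of -0.67, -0.67 and -0.62 for EF1, EF2 and EFPC. The log2 fold change was -0.64 (SE 0.171), with adjusted p values of 0.0068 (DESeq2) and 0.146 (edgeR). The DESeq2 call was lost without control replicate 1, induced replicate 1 or induced replicate 2 (adjusted p = 0.0797, 0.107 and 0.109), and likewise without the EF1 or EF2 pair (0.824 and 0.338). Elk1, the remaining ternary complex factor and outside the members, was at 18.3 ± 3.18 CPM without doxycycline and 17.95 ± 1.72 CPM with it (SD, n = 3).

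SRF itself was not called, at 81.2 ± 16.2 CPM without doxycycline and 84.1 ± 10.7 CPM with it (Srf, SD, n = 3). Its actin-regulated coactivators Mrtfa and Mrtfb were at 26.1 ± 1.43 and 31.3 ± 7.87 CPM without doxycycline and at 54.5 ± 29.5 and 40.4 ± 5.67 CPM with it. Mrtfa was lowest in the induced EF1 library (29.4 CPM) and highest in the EFPC library (87.1 CPM), the reverse of Etv6. It was not called by DESeq2 (adjusted p = 0.0568) and was called with the pairing as a block (adjusted p = 0.0433).

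Immediate early genes on which ternary complex factors act were split by pair. Of 12 listed genes 10 were tested. DESeq2 called 1 higher and 0 lower (4.25% and 2.65% of all genes). EdgeR called 0, with 2 higher and 0 lower at an unadjusted p under 0.05 (9.34% and 8.23% of all genes). The median edgeR log2 fold change was 0.12. Within the pairs the median was 0.45, 0.43 and -0.87 for EF1, EF2 and EFPC. The -0.87 lies between Fosb (-0.89) and Egr2 (-0.85), which had control means of only 0.838 and 1.615 CPM. Fos and Egr3 were also low, with control means of 1.196 and 3.067 CPM. At higher levels, Ier2, Junb and Mcl1 had EFPC differences of -1.15, -0.97 and -0.21. These genes were named after their values were seen. Of the 10 genes, 7, 7 and 0 were higher than in the control of the same pair. The called gene was Zfp36, which encodes an mRNA-destabilising protein, with 5.91, 5.24 and 5.38 CPM without doxycycline and 32.2, 18.3 and 4.05 CPM with it. Its DESeq2 adjusted p was 0.0441, and it was 0.0617 with the pairing as a block, which left 0 of the 10 called. Junb, an AP-1 subunit chosen after its values were seen, had 53.5, 66.2 and 62.3 CPM without doxycycline and 205, 127 and 31.8 CPM with it (DESeq2 adjusted p = 0.268). The EFPC library was the lowest induced library for both genes, and lay below all of the controls.

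Among the ELF factors, DESeq2 called Elf4 and not Elf1 or Elf2, and edgeR called none of them. Elf4 (chromosome X, 48411049 to 48463132), also called MEF, is an activator that promotes interferon and cytotoxic gene expression. It had 78.2, 61.8 and 92.7 CPM without doxycycline and 121, 116 and 126 CPM with it. The induced values kept within a narrow range, above the highest control. The log2 fold change was 0.66 (SE 0.209), with adjusted p values of 0.0319 (DESeq2) and 0.169 (edgeR). Without any 1 of control replicates 1 and 2 or induced replicates 1 and 2 the DESeq2 call was lost (adjusted p = 0.26, 0.0542, 0.173 and 0.134), as it was without the EF1 or the EF2 pair (0.945 and 0.362).

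Elf1 (chromosome 14, 79481174 to 79582491), an activator of lymphoid and myeloid genes, had the highest level of the 9 in TPM, the length-scaled unit used below. It had 183, 174 and 232 CPM without doxycycline and 293, 224 and 254 CPM with it. Each induced value exceeded that of its pair, yet the groups overlapped. DESeq2 did not call it, at 0.40 (SE 0.210) on the log2 scale and an adjusted p of 0.271. Elf2 (chromosome 3, 51252720 to 51340683), also called NERF, read 89.7, 79.9 and 89.6 CPM without doxycycline and 88.5, 99.0 and 98.6 CPM with it (log2 fold change 0.16, SE 0.148, DESeq2 adjusted p = 0.618).

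Fli1 (chromosome 9, 32422204 to 32543432), a factor of megakaryocytes and blood stem cells, had 53.9, 49.6 and 74.1 CPM without doxycycline and 80.9, 70.7 and 83.8 CPM with it. The EFPC control was the highest of its group and lay above the induced EF2 library, so the groups overlapped. DESeq2 did not call it either, at 0.42 (SE 0.224) on the log2 scale and an adjusted p of 0.283. Without the EFPC control DESeq2 called it (adjusted p = 0.00957), and without the EFPC pair so did both DESeq2 and edgeR (adjusted p = 0.0181 and 0.0424). Elf1 was also called by DESeq2 without the EFPC pair (adjusted p = 0.0277). Calls rose over all genes in these fits. DESeq2 called 873 genes higher without the EFPC control and 1666 without the EFPC pair, against 558 with all libraries. EdgeR called 1300 higher without the pair, against 0 with all libraries. The DESeq2 fits that left out libraries were added after seeing the data.

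Ets2 (chromosome 16, 95702407 to 95721049), a target of ERK phosphorylation, had the widest split between pairs of opposite sign. It had 32.6, 27.4 and 33.3 CPM in the controls. The induced EF1 and EF2 libraries were both at 41.3 CPM, above all controls, and the induced EFPC library was at 18.8 CPM, below them all. The fold change over all libraries, 0.14 on the log2 scale (SE 0.330, DESeq2 adjusted p = 0.876), thus joins steps of 0.34, 0.59 and -0.82 within the pairs.

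Gabpa (chromosome 16, 84834891 to 84863783) encodes the DNA-binding subunit of GABP, which acts with a beta subunit and drives many mitochondrial and housekeeping genes. Gabpa had 73.7, 61.7 and 81.1 CPM without doxycycline and 67.9, 72.7 and 93.3 CPM with it, with much overlap (log2 fold change 0.13, SE 0.214, DESeq2 adjusted p = 0.81). Of the beta subunit genes DESeq2 called Gabpb2 and not Gabpb1, and the difference between them was not tested. Gabpb2 was at 91.7 ± 22.2 CPM without doxycycline and 156 ± 16.3 CPM with it (SD, n = 3), with a fold change of 0.78 on the log2 scale (SE 0.239) that DESeq2 called (adjusted p = 0.0239). Gabpb1 was at 59.6 ± 5.09 and 50.6 ± 8.02 CPM and was not called (DESeq2 adjusted p = 0.596).

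The GABP target list had small negative values. Of 8 genes tested, 0 were called by DESeq2 or by edgeR. By edgeR 0 were higher and 2 lower at an unadjusted p under 0.05, as were 9.34% and 8.23% of all genes. All 8 had a negative edgeR log2 fold change, as had 6826 of all 13260 tested genes. In all 3 pairs 7 of the 8 were lower, as were 25.8% of all genes. The groups did not overlap in CPM for 4 of the 8, all lower with doxycycline, against 13% of all genes downward. The median of the 8 was -0.32. The medians within the pairs were -0.34, -0.45 and -0.19. Cox4i1 and Cox5b, subunits of cytochrome oxidase, were at 422 ± 126 and 192 ± 30.8 CPM without doxycycline and at 324 ± 34.5 and 145 ± 13.7 CPM with it (SD, n = 3). With the pairing as a block DESeq2 called 1 lower, where it called 4.73% of all genes lower. This was Cox7c, another subunit of that enzyme, named after its value was seen (adjusted p = 0.0488).

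**Figure D3:**
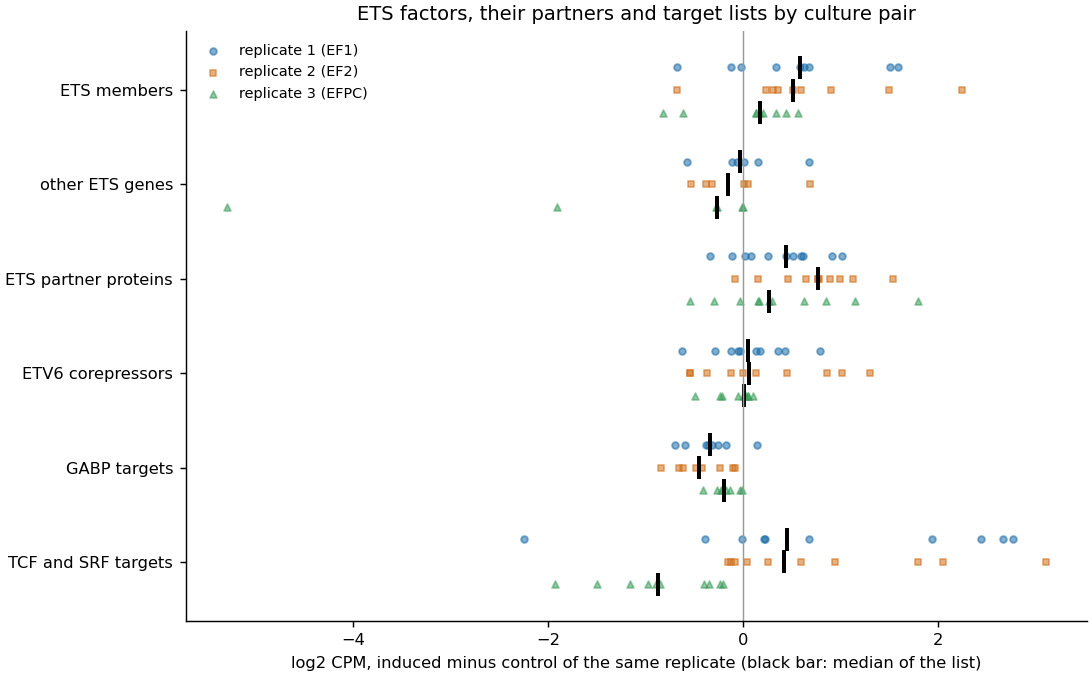
Difference in log2 CPM, induced minus control of the same replicate, for each gene (points) of the 9 ETS factors and of 5 related lists, with a black bar at the median of each list in each pair. TCF stands for ternary complex factor. The TCF and SRF targets have medians of 0.45, 0.43 and -0.87 in the EF1, EF2 and EFPC pairs. The last of these lies between Fosb and Egr2, both at low CPM. The farthest point to the left is Erg in the EFPC pair (-5.295).

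Promoter sequences are shown for the 4 factors called by DESeq2, up to 250 bases before the outermost annotated start, with the ETS motif CCGGAAGT in capitals where it occurs (RefSeq, GRCm38.p6, 5′ to 3′ on the strand of the gene). For Elk4 the stretch stops where the annotated gene begins.
Etv6 (chr6:134035450-134035699, plus strand): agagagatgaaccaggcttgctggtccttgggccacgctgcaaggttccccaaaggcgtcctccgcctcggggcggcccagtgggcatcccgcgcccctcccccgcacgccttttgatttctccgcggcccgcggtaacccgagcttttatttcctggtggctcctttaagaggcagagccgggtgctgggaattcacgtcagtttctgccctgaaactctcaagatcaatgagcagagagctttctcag
Elk4 (chr1:132007370-132007576, plus strand): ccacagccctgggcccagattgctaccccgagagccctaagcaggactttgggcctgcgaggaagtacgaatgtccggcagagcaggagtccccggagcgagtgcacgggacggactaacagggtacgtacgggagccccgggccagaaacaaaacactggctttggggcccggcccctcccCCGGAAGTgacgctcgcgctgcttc
Elf4 (chrX:48463133-48463382, minus strand): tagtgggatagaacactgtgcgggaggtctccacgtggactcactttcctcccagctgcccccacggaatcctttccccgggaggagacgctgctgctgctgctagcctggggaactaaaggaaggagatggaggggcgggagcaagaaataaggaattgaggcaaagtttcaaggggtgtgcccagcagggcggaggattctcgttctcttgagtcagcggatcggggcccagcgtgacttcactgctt
Elk3 (chr10:93311160-93311409, minus strand): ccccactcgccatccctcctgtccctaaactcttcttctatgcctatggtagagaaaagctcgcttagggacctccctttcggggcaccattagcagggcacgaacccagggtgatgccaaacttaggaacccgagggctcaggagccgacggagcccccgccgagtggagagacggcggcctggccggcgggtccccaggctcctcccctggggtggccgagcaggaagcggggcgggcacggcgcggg

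Of the 9 factors, 8 matched a promoter entry, with 13 annotated starts between them. The motif CCGGAAGT, searched on both strands in the 250 bases before each start, was found before 1 of the 13 starts, that of Elk4 shown above. It was found before 2.88% of 32851 starts of all genes. An interferon-stimulated response element, searched as GAAA, any 2 bases and GAAA, was also found before 1 of the 13 starts, an inner start of Elk4, against 2.98% of all starts. There it reads, with the element in capitals:
Elk4 (chr1:132008281-132008310, plus strand): caggaagttgGAAAGTGAAAgtgctttctt

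A STAT site written as TTCNNNGAA was found before 1 of the 13 starts as well, an inner start of Elf2, against 7.02% of all starts. Elk4 was therefore the only one of the 8 factors with the ETS motif or the interferon element in these windows. None of the 3 motifs was found in the windows of the other 3 factors called by DESeq2. The 30 bases after the Elk3 start, and after the inner start of Elf4, were not found in the GENCODE transcripts of those genes, so the position of these starts is less certain.

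Of the 16 mouse ETS genes outside the members, 6 were analysed, and 0 of these were called by DESeq2 or by edgeR. By edgeR 0 of them had an unadjusted p under 0.05. Their median edgeR log2 fold change was -0.19. Spi1, which encodes PU.1, a master factor of myeloid and B cells, was at 68.9 ± 9.44 CPM without doxycycline and 60.1 ± 5.30 CPM with it (SD, n = 3, DESeq2 adjusted p = 0.651). Etv3, an ETS repressor of macrophages, had 49.5, 37.3 and 42.9 CPM without doxycycline and 79.3, 60.0 and 42.6 CPM with it. Its induced EFPC library was at the level of the controls (DESeq2 adjusted p = 0.307). Erf, a repressor regulated by ERK, was at 24.1 ± 2.92 and 21.1 ± 5.56 CPM.

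Erg and Etv5, named after their values were seen, were low in the induced EFPC library. Erg, a close relative of Fli1 active in blood stem cells, had 32.5, 30.2 and 36.6 CPM without doxycycline and 31.1, 23.1 and 0.879 CPM with it. The last value rests on 39 reads, against 916 to 1331 in the other 5 libraries. Etv5, whose expression follows ERK signalling in many cells, had 47.4, 21.0 and 61.0 CPM without doxycycline and 31.8, 21.1 and 16.2 CPM with it. In the EFPC pair 99.985% of all tested genes had a higher difference than Erg and 99.02% a higher one than Etv5. Neither was called, with DESeq2 adjusted p values of 0.757 and 0.206.

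Among proteins that work with ETS factors, DESeq2 called a few genes higher and none lower. Of 15 listed genes 11 were tested. DESeq2 called 3 higher and 0 lower, where it called 4.25% and 2.65% of all genes. With the pairing as a block it called 6 higher, where it called 6.4% of all genes higher. EdgeR called 0, with 6 higher and 0 lower at an unadjusted p under 0.05 (9.34% and 8.23% of all genes). The median edgeR log2 fold change was 0.71. The 3 were Gabpb2, Runx1 and Crebbp. Runx1, which encodes a blood cell factor that binds DNA together with ETS1, had 99.5, 90.4 and 101 CPM without doxycycline and 150, 154 and 182 CPM with it. Its groups did not overlap, and the induced EFPC library was the highest (log2 fold change 0.76, SE 0.164, DESeq2 adjusted p = 3.67e-04). Crebbp, a histone acetyltransferase gene, was at 32.9 ± 7.83 CPM without doxycycline and 54.0 ± 2.43 CPM with it (SD, n = 3, DESeq2 adjusted p = 0.027). The block added Mrtfa, Runx2 and Ep300, named after their values were seen (adjusted p = 0.0433, 0.0064 and 0.0195). Cbfb, the non-DNA-binding partner of the RUNX factors, was at 190 ± 41.5 and 181 ± 41.0 CPM.

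The corepressors and modifiers that act with ETV6 showed 0 calls among 10 tested of 11 listed, by DESeq2 or edgeR. By edgeR 1 was higher and 1 lower at an unadjusted p under 0.05, as were 9.34% and 8.23% of all genes. Their median edgeR log2 fold change was 0.09. Ncor1, a nuclear receptor corepressor, had 231, 162 and 318 CPM without doxycycline and 400, 401 and 318 CPM with it (DESeq2 adjusted p = 0.145). Hdac3, the deacetylase of NCOR complexes, named after its values were seen, had 103, 97.9 and 106 CPM without doxycycline and 66.3, 67.0 and 91.6 CPM with it (DESeq2 adjusted p = 0.193).

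The order of the factors, taken from the authors' length-scaled TPM values, changed at Etv6, Elk3 and Elf4. In the controls Elf1 was first at 93.1 ± 24.3 TPM (SD, n = 3) and Elk4 last at 6.69 ± 4.46 TPM. The 7 between them ran from Elk3 at 36.8 ± 6.55 TPM through Fli1, Elf2, Etv6, Gabpa and Elf4 to Ets2 at 16.1 ± 3.11 TPM, and each of these overlapped the next of them. Elf1 did not overlap Elk3, and Ets2 did not overlap Elk4. Etv6 held place 5, at 28.4 ± 5.11 TPM. In the induced libraries Elf1 was again first, at 129 ± 18.4 TPM, and Etv6 was second at 69.8 ± 23.2 TPM. The libraries of Etv6 ran from 43.8 to 88.5 TPM and overlapped those of Fli1, the next in order (48.4 ± 6.001 TPM). Elf4 went from place 7 to place 5, passing Gabpa, which it overlapped in both groups. Elk3 held place 7 of 9 at 24.97 ± 3.59 TPM, and Elk4 was last at 16.4 ± 0.958 TPM, overlapping Ets2 at 18.4 ± 6.53 TPM. The neighbours that did not overlap after induction were Elf1 and Etv6, Fli1 and Elf2, and Elk3 and Ets2.

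**Figure D4:**
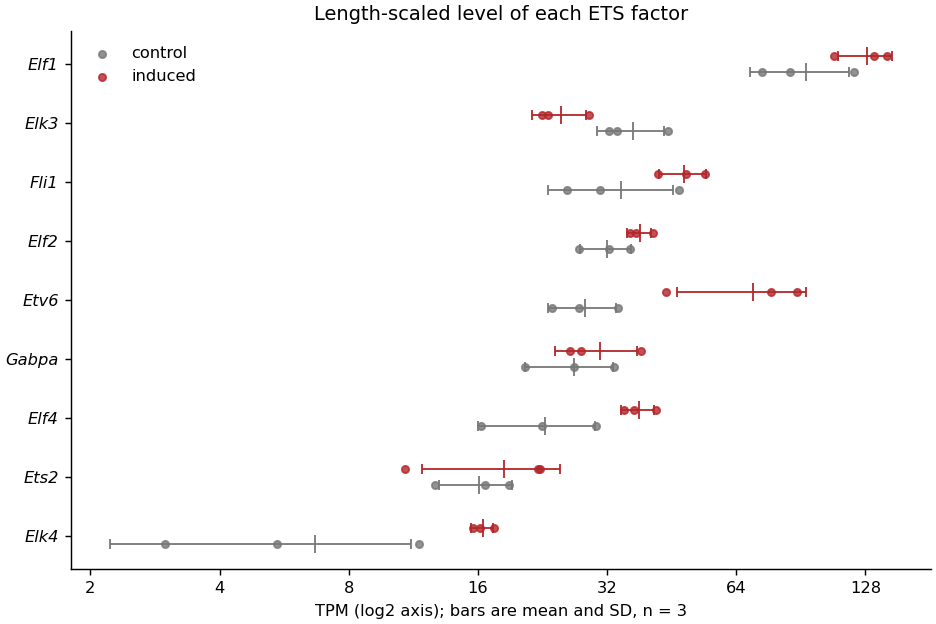
TPM of each ETS factor on a log2 axis, with points for the 3 libraries of each group and bars for their mean and SD. Etv6 moves from 28.4 to 69.8 TPM and Elk3 from 36.8 to 24.97 TPM, while Elf1 is the highest and Elk4 the lowest by mean in both groups.

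The genes whose log2 CPM followed Etv6 most closely over the 6 libraries were Mdm2, Osm, Mpeg1, Samd9l and Prkce. Their Pearson r with Etv6 was 0.999, 0.998, 0.998, 0.997 and 0.996. These were the 5 highest among 9483 eligible genes, which averaged 5 CPM or more. Genes with Gm, Rik or LOC symbols were left out. The 6 points share their libraries and fall into the 2 groups, so r is given as a description. Mdm2, the ubiquitin ligase of p53, covered a small range, with 80.0, 77.9 and 81.0 CPM without doxycycline and 119, 116 and 89.3 CPM with it. Osm, a cytokine of the interleukin-6 family, had 19.4, 15.1 and 20.9 CPM without doxycycline and 126, 105 and 34.7 CPM with it. Prkce, a protein kinase C gene, had 19.3, 17.9 and 20.3 CPM without doxycycline and 62.3, 51.9 and 24.5 CPM with it. All 5 had the order of Etv6 over the induced libraries, with EF1 highest and EFPC lowest. Among the 8 other members r ran from -0.92 for Elk3 to 0.79 for Elk4.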

How the data were processed

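RNA of 6 Ba/F3 cultures was sequenced from stranded mRNA libraries, per the labels' protocols. Per the submitters' processing notes, HISAT2, DESeq2 and mm10 were used, and no version is stated there. The program, annotation and strand setting of the read counting were not given in the sources used here. Raw counts by gene were deposited by the authors with their TPM, FPKM and regularised log2 values and the authors' comparison with a signed fold score, a baseline mean signal and p-values. FPKM was not used here. Every gene of the table has at least 1 count in every library, so genes with none in a library were not analysed here.

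Counts were tested in R 4.3.3 with edgeR 4.0.16 (TMM, filterByExpr, quasi-likelihood test) as the main test and with DESeq2 1.42.0, whose log2 fold changes matched those of the authors' deposited table within 1.4e-09. Benjamini-Hochberg adjustment ran over all genes at a threshold of 0.05, and both tools were run on simulated counts. The simulated counts held no culture effect shared across genes, so they do not show how the tools handle the EFPC pair. Log2 CPM used a prior count of 2. Limma 3.58.1 was an alternative. Deviations from the group means correlated within the pairs (r = 0.174, 0.342 and 0.352 over genes for EF1, EF2 and EFPC). Across EF1 and EF2, r was 0.149 (EF1 control, EF2 induced) and 0.0992 (EF2 control, EF1 induced). Between EFPC and the others it ran from -0.397 to -0.183. A gene's deviations cancel out over the libraries of a group, so a positive value within EFPC brings negative ones on balance. The negative values are therefore no separate evidence on the pairing. EF1 and EF2 are separated only weakly by their values. The libraries were paired by the prefixes of the titles. Positions came from the RefSeq gene table of GRCm38.p6, the build of mm10, which held 14205 (99.8%) of the IDs. Csf2rb and Csf2rb2 are near copies and uncertain as single genes.

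The members and lists were chosen with earlier results of these data known. The text names all members, up to 3 called genes of each list (or the 2 most abundant) and the 3 nearest tested genes on each side of Etv6. It also names the 5 eligible genes most correlated with Etv6. Not all of the genes so chosen are described. A gene that the rule names is not reported here. The lists were other ETS genes, ETS partner proteins, ETV6 corepressors, ternary complex factor and SRF targets, GABP targets, interferon-response genes, and B lineage, T cell and fibroblast markers. Markers of interleukin-3-dependent cells had 4 of 5 listed genes tested, of which 2, Csf2rb and Csf2rb2, were called higher by DESeq2. The alternatives that left out libraries under DESeq2 were added after seeing the data.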

Additional observations from a re-analysis of the deposited data

How the results depend on the processing

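The direction of Etv6, Elf1, Elf2, Elf4, Fli1, Elk3 and Elk4 was kept under all 16 alternatives to the edgeR fit and all 10 to the DESeq2 fit. Etv6 had a log2 fold change of 1.23 by DESeq2, 1.164 by DESeq2 with the replicate block, and 0.993 to 1.55 by edgeR or 1.001 to 1.567 by DESeq2 when a library or a pair was left out. Its adjusted p was 0.152 by edgeR with the replicate block and 0.187 by limma-voom. DESeq2 called 3 members higher and 1 lower with and without the replicate block. It called 558 genes higher and 348 lower, and 770 and 569 with the replicate block. When libraries or pairs were left out, edgeR called 0 to 4 members higher and 0 to 1 lower, and 0 to 1300 genes higher and 0 to 844 lower. DESeq2 then called 0 to 5 members higher and 0 to 1 lower, and 43 to 1666 genes higher and 17 to 1076 lower. The highest of these counts came without the EFPC pair, and the lowest DESeq2 gene counts without the EF1 pair. Ets2 reversed, to -0.108 by edgeR and -0.111 by DESeq2 at the lowest, and was 0.465 and 0.481 at the highest. Gabpa reversed to -0.031 by edgeR and -0.026 by DESeq2 without the induced EFPC library, with highest values of 0.217 and 0.227. The cause was not tested. Counts of 39 to 11272 reads lie behind the ETS values, so counting error is small beside the spread between cultures.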
